A study of Mus musculus with 12 samples.

Results

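The genes examined were 51 components of the cytosolic translation machinery in mouse liver, chosen by gene symbol from the 54532 genes of the deposited table. They fell into 2 classes, 19 aminoacyl-tRNA synthetases and 32 initiation and elongation factors with their regulators. All 51 symbols were found once each, and all 51 passed the filter on low values, which left 11451 genes for testing. RNA-seq of whole liver was available for 12 libraries from wild-type C57/BL6J mice, with 3 libraries in each group. The groups were sham-operated mice, for which no hour is given, and mice whose livers were taken at 3 h, 6 h and 12 h after removal of 70% of the liver (partial hepatectomy). The labels number the libraries but do not say whether each came from a separate animal, so p-values measure only the spread between these libraries. For 6 h replicate 3 the title gives 6 h and the time tag 7 h, and the title was followed. Because whole tissue was sequenced, fewer cells of a type and less RNA per cell cannot be told apart.

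Aminoacyl-tRNA synthetases join each amino acid to its tRNA, and in mammals several of them sit together in a multisynthetase complex. Initiation factors bring the initiator tRNA, the small ribosomal subunit and the capped mRNA together, with eIF2 and its exchange factor eIF2B as one control point and the cap-binding complex eIF4F as another. Elongation factors then deliver charged tRNAs and move the ribosome along the mRNA. A liver that has lost most of its mass regrows by hypertrophy and division of the remaining cells, both of which need protein synthesis.

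A pair of regulatory motifs known for these gene families was searched for, on both strands, in the 250 bases before each annotated RefSeq start (assembly GRCm38.p6). TGATGNAA is the amino acid response element bound by ATF4, and CACGTG is the E-box bound by MYC and related factors; N stands for any base, and the 2 motifs do not overlap in the pieces shown. RefSeq promoters were matched for 36 members, 12 synthetases and 24 factors, and not for Cars, Hars, Lars, Nars, Rars, Vars, Wars, Eif1a, Eif2b3, Eif3e, Eif4ebp1, Eif4g2, Eif6, Eef1d and Eef1g. TGATGNAA lay before the start of 3 of the 12 synthetases (Aars, Gars and Tars) and of 1 of the 24 factors (Eef2k, at an alternative start), and in 3.45% of all 32851 windows of that length (3.91% of 27025 genes). CACGTG lay before 3 of the 12 synthetases (Aars, Farsb and Iars) and before 6 of the 24 factors (Eif4a1, Eif4e, Eif4g1, Eif5a, Eef2 and Eef2k), and in 6.02% of all windows (6.86% of genes). These counts are descriptions of letters and not of binding. The pieces below belong to some of the members whose levels are described later. Those of Iars, Eif4e, Eif4g1 and Eif5a, and that of Eef2k at its alternative start, are not shown. Each piece shown reads 5′ to 3′ on the strand of its gene, with the motif in capitals (TGATGNAA appears there as its reverse complement).
Aars (chr8:111033676-111033757, plus strand): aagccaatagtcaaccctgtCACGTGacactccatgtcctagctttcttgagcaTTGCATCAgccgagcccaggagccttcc
Gars (chr6:55037951-55037998, plus strand): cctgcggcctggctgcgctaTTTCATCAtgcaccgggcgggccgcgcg
Tars (chr15:11399659-11399693, minus strand): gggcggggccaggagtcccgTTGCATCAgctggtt
Farsb (chr1:78488909-78488956, minus strand): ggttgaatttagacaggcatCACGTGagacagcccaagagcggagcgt
Eif4a1 (chr11:69672585-69672632, minus strand): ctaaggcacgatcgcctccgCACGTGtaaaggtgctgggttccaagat
Eef2 (chr10:81176568-81176615, plus strand): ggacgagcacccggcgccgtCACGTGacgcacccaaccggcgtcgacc
Eef2k (chr7:120842780-120842827, plus strand): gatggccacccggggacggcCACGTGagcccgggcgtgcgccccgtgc

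Library totals lay between 15573405 and 17199639 counts, and the biological coefficient of variation over all genes was 20.6%. Sham replicate 1 stood apart, with 11.9% of its counts on mitochondrial genes against 6.26% and 5.52% in the other sham libraries, and counts of calls are therefore also given without it. Scaling by library totals alone moved the median of all genes by -0.18 (log2) at 3 h and by -0.31 at 6 h against sham, by -0.13 at 6 h against 3 h and by 0.30 at 12 h against 6 h. Under that scaling the share of all calls that were higher was 25%, 22.0%, 29.9% and 84.8% in those 4 comparisons, against 45.5%, 48.1%, 51.5% and 49.0% as reported. Levels below are deposited FPKM (counts per kilobase of gene length, divided by 1 number per library), and differences are log2 differences from edgeR on the counts, with their standard error (SE). A gene was called when its adjusted p over all genes tested was under 0.05.

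Most called members of both classes were higher after resection. How the times rank by number of calls depended on the scaling between libraries. At 3 h, 3 of 19 synthetases (15.8%) and 5 of 32 factors (15.6%) were higher than sham, against 9.81% of all genes tested. In the same comparison 1 factor (3.12%) was lower, against 11.7% of all genes, and edgeR called 0 synthetases lower, with 0 at an unadjusted p under 0.05 and 0 by DESeq2 or limma. At 6 h, 14 of 19 synthetases (73.7%) and 17 of 32 factors (53.1%) were higher than sham, where the share over all genes was 16.8%. Lower at 6 h were 2 factors (6.25%), against 18.2% of all genes, while edgeR called 0 synthetases lower, again with 0 at an unadjusted p under 0.05 and 0 by DESeq2 or limma. At 12 h, 9 synthetases (47.4%) and 13 factors (40.6%) were higher than sham, against 13.5% of all genes, and 2 synthetases (10.5%) and 2 factors (6.25%) were lower, against 15.3%. With library totals in place of the scaling used here, 0 synthetases were called at 3 h, and 3 factors were higher and 3 lower. At 6 h that scaling gave 7 synthetases higher and 1 lower, and 10 factors higher and 3 lower. At 12 h it gave 10 synthetases higher and 2 lower, and 15 factors higher and 2 lower. Under it more members of both classes were thus called at 12 h than at 6 h, and with the scaling used here more at 6 h. Of all genes tested, library totals called 782 higher and 2346 lower at 3 h. These numbers were 1048 and 3706 at 6 h, and 1561 and 1713 at 12 h. With the scaling used here they were 1123 and 1345, 1924 and 2080, and 1547 and 1751 in the same order. More of all genes were thus called higher at 12 h than at 6 h with library totals, and fewer with the scaling used here. Under both scalings, more of all genes were called lower at 6 h than at 12 h.

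**Figure D1:**
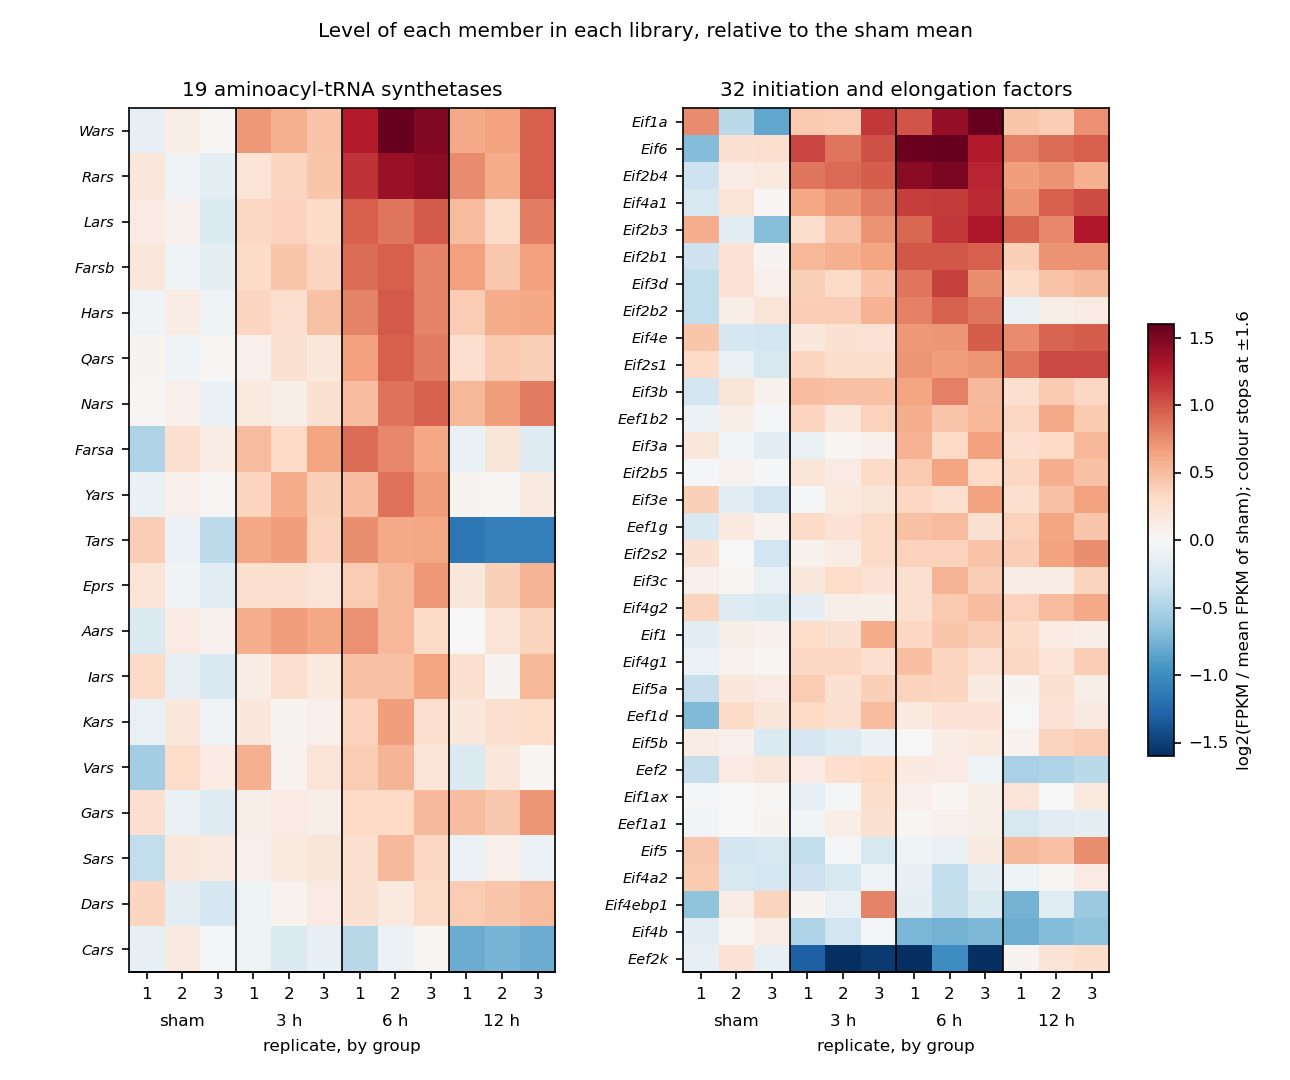
Level of each of the 51 members (rows, sorted within class by the difference at 6 h) in each of the 12 libraries (columns), as log2 of FPKM over the mean of the 3 sham libraries; red is higher than sham and blue lower, and the colour stops at ±1.6. The group mean in FPKM is highest at 6 h for 15 of 19 synthetases and for 14 of 32 factors, and at 12 h for 12 factors. Tars and Cars turn blue at 12 h, and Eef2k is dark blue at 3 h and 6 h and back near the sham level at 12 h.

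The median member moved in the same direction as these counts. The median log2 difference from sham over the 19 synthetases was 0.25 at 3 h, 0.63 at 6 h and 0.35 at 12 h. Over the 32 factors it was 0.25, 0.38 and 0.39 at the same times, and over all genes tested it was -0.02, -0.01 and -0.02. With library totals the medians were 0.07, 0.33 and 0.34 for the synthetases and 0.05, 0.07 and 0.38 for the factors, beside medians of all genes of -0.20, -0.32 and -0.03. For the synthetases the 6 h median was thus the higher with the scaling used here, while with library totals the medians at 6 h and 12 h were nearly equal. For the factors the 12 h median was the higher under both scalings, by little with the scaling used here. Relative to the median of all genes, the synthetases stood at 0.28, 0.64 and 0.37 and the factors at 0.27, 0.39 and 0.41, and with library totals at 0.27, 0.65 and 0.37 and at 0.25, 0.39 and 0.41. The group mean in FPKM was highest at 6 h for 15 of the 19 synthetases and at 12 h for 2 of them (Dars and Gars). Among the 32 factors it was highest at 6 h for 14, at 12 h for 12 and at 3 h for 5. The sham mean was the highest for Cars alone among the synthetases and for Eif4b alone among the factors. Members of a class differ in function and are not replicates, so the difference between the classes was described and not tested.

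Calls at successive times overlapped in part. Among the synthetases, 7 were higher than sham at both 6 h and 12 h, 7 at 6 h and not at 12 h, and 2 at 12 h and not at 6 h. Among the factors, these numbers were 10, 7 and 3. Wars was the 1 synthetase called higher at all 3 times, and Eif2b1, Eif2b4, Eif4a1 and Eif6 were the 4 such factors. Vars and Sars, the valine and serine enzymes, were the 2 synthetases called in no comparison with sham, and 9 factors shared that pattern. The shares of all genes tested with these patterns were not computed, so no pattern is read as particular to either class. Without sham replicate 1, 5, 16 and 13 synthetases and 10, 20 and 19 factors were called in either direction at 3 h, 6 h and 12 h, against 3, 14 and 11 synthetases and 6, 19 and 15 factors with it.  Without sham replicate 3, 3 h replicate 1 or 3 h replicate 2, 1 synthetase was called at 3 h. Without sham replicate 3 or 12 h replicate 3, 7 synthetases were called at 12 h, and without 12 h replicate 2 or 12 h replicate 3, 9 factors were. Where these libraries were left out, fewer of all genes tested were called in each direction as well.

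**Figure D2:**
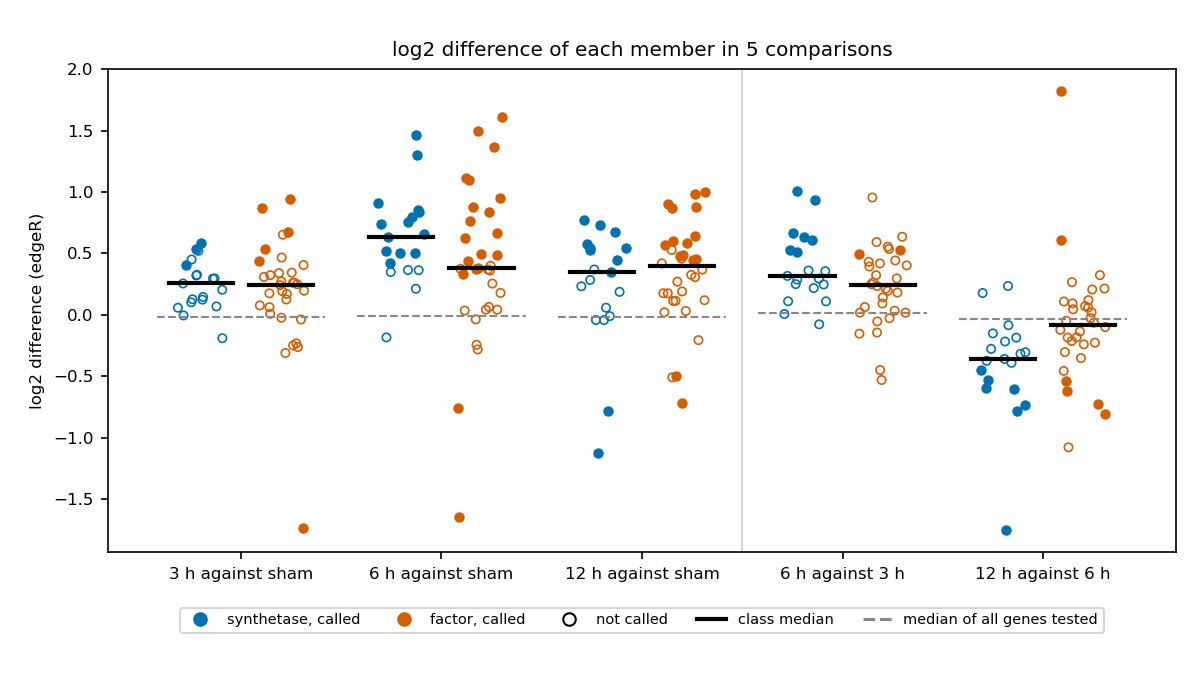
Log2 difference of each member (1 point each) in 5 comparisons, synthetases in blue and factors in orange; filled points were called at an edgeR adjusted p under 0.05, bars are class medians and dashes the median of all genes tested. The synthetase median is 0.63 at 6 h against sham and -0.36 at 12 h against 6 h, where the factor median is -0.08.

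The summed level of each class was set beside these counts. The 19 synthetases together held 208.8 ± 14.3 FPKM in sham livers, 257.3 ± 1.79 at 3 h, 333.6 ± 13.6 at 6 h and 262.2 ± 19.7 at 12 h (SD, n = 3 each). All 3 libraries at 6 h were above every library of the other groups, with 319, 345 and 337 FPKM, and the highest elsewhere was 284 FPKM in 12 h replicate 3. The 32 factors held 2365 ± 107 FPKM in sham livers, 2680 ± 213 at 3 h, 2732 ± 37.2 at 6 h and 2315 ± 92.2 at 12 h. Eef1a1 alone supplied about as much of this as the other factors together, and without it the sums were 1107 ± 71.5, 1328 ± 80.7, 1419 ± 16.5 and 1216 ± 52.8 FPKM. As a share of all counts, the synthetases made up 0.117% ± 0.00530 in sham livers, 0.128% ± 0.00634 at 3 h, 0.143% ± 0.00522 at 6 h and 0.135% ± 0.00751 at 12 h. The corresponding shares for the factors were 0.846% ± 0.0572, 0.815% ± 0.0273, 0.783% ± 0.0188 and 0.859% ± 0.0231, with overlap between sham and each later time. Without Eef1a1 they were 0.494% ± 0.0307, 0.491% ± 0.00819, 0.493% ± 0.0152 and 0.557% ± 0.0182, and all 12 h libraries, at 0.536% to 0.572%, lay above all others. The synthetase shares of the 6 h and 12 h libraries overlapped. A share of counts does not use the scaling between libraries that FPKM and the test use.

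**Figure D3:**
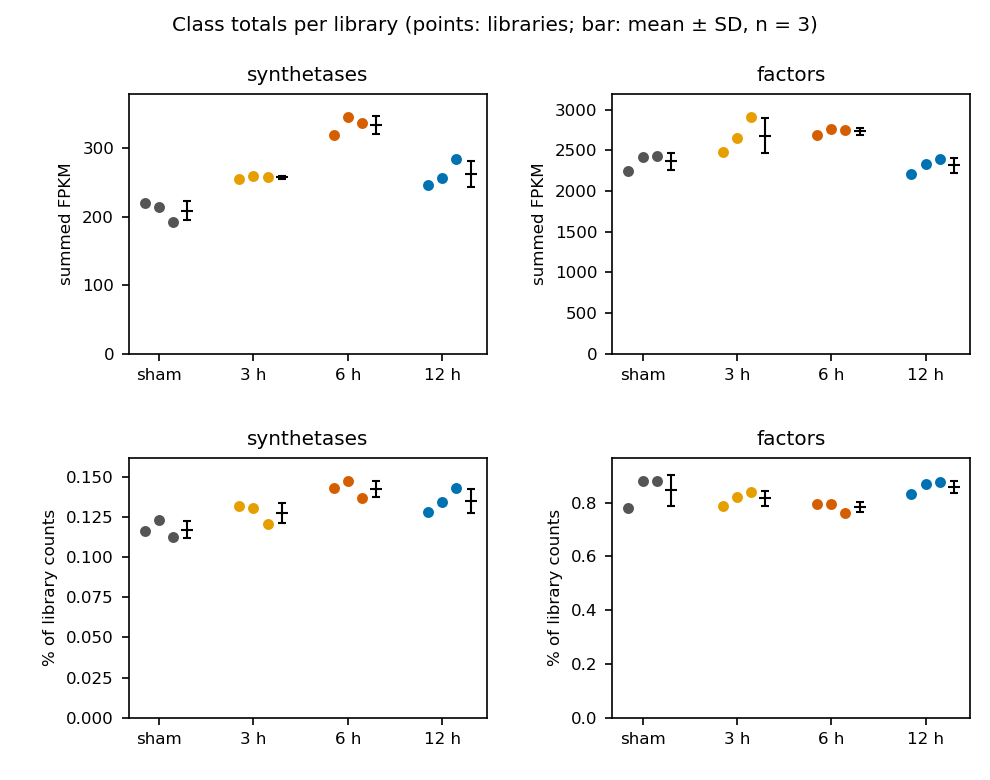
Summed FPKM (upper panels) and percent of all library counts (lower panels) of the 19 synthetases (left) and the 32 factors (right) in each library, with the mean ± SD of each group beside the points. The group mean of summed FPKM is highest at 6 h in both classes, at 333.6 for the synthetases and 2732 for the factors (2680 at 3 h). As a share of counts, the synthetases lie between 0.113% and 0.147% and the factors between 0.762% and 0.879% in every library.

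Among the synthetases, Wars and Rars had the largest rises against sham, both at 6 h. Rars (ENSMUSG00000018848, chr11:35808381-35834506 in GRCm38, as all positions here), the arginine enzyme and a part of the multisynthetase complex, had 9.26, 7.86 and 7.36 FPKM in sham livers, 9.51, 10.3 and 11.1 at 3 h, 18.2, 21.3 and 21.9 at 6 h and 13.8, 12.3 and 15.9 at 12 h. Every library at 6 h was above every library of the other groups, and every library at 12 h was above every sham library. Rars rose by 1.301 ± 0.14 at 6 h (edgeR adjusted p = 1.52e-05) and by 0.77 ± 0.14 at 12 h (edgeR adjusted p = 0.00135), while at 3 h its difference of 0.30 ± 0.14 was not called. Wars (ENSMUSG00000021266, chr12:108860030-108894174), the tryptophan enzyme, induced by interferon in human cells, had 3.98, 4.71 and 4.44 FPKM in sham livers, 7.05, 6.48 and 5.98 at 3 h, 10.4, 14.2 and 12.2 at 6 h and 6.69, 6.82 and 8.46 at 12 h. Its 3 h, 6 h and 12 h libraries all lay above the sham libraries, and the 6 h libraries lay above all others. Wars rose by 0.53 ± 0.16 at 3 h, 1.46 ± 0.16 at 6 h and 0.73 ± 0.16 at 12 h, with edgeR adjusted p of 0.0261, 1.36e-05 and 0.00362. The 3 h call of Wars was lost without sham replicate 3 and without 3 h replicate 1 or 2.

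Lars, Farsb and Hars, the leucine enzyme, the β subunit of the phenylalanine enzyme and the histidine enzyme, followed the same course at a smaller size. Lars had 8.24, 7.92 and 6.49 FPKM in sham livers, 9.47, 9.75 and 9.32 at 3 h, 14.6, 13.7 and 14.95 at 6 h and 10.7, 9.37 and 13.3 at 12 h. The 6 h libraries were the 3 highest of the 12, and Lars rose by 0.91 ± 0.14 at 6 h and 0.55 ± 0.14 at 12 h (edgeR adjusted p = 0.000303 and 0.0121). The 12 h call of Lars was lost without sham replicate 3 or 12 h replicate 3. Farsb (chr1:78417975-78488897) had 12.96, 11.04 and 10.3 FPKM in sham livers, 14.2, 15.5 and 14.5 at 3 h, 21.2, 22.2 and 19.9 at 6 h and 18.05, 15.5 and 18.1 at 12 h. Its groups did not overlap between sham and any later time, and its differences were 0.86 ± 0.13 at 6 h and 0.58 ± 0.13 at 12 h, both called (edgeR adjusted p = 0.000180 and 0.00430). Hars had 11.96, 13.5 and 11.8 FPKM in sham livers, 15.7, 15.02 and 17.1 at 3 h, 21.5, 24.6 and 21.6 at 6 h and 16.4, 18.7 and 19.1 at 12 h. The groups again kept apart from sham, and Hars rose by 0.83 ± 0.12 at 6 h and 0.53 ± 0.12 at 12 h (edgeR adjusted p = 0.000182 and 0.00635). Hars shares 195 exon bases with Hars2 on the opposite strand, a gene at a mean of 5.49 FPKM, and the strand used in counting is not given in the sources used here.

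**Figure D4:**
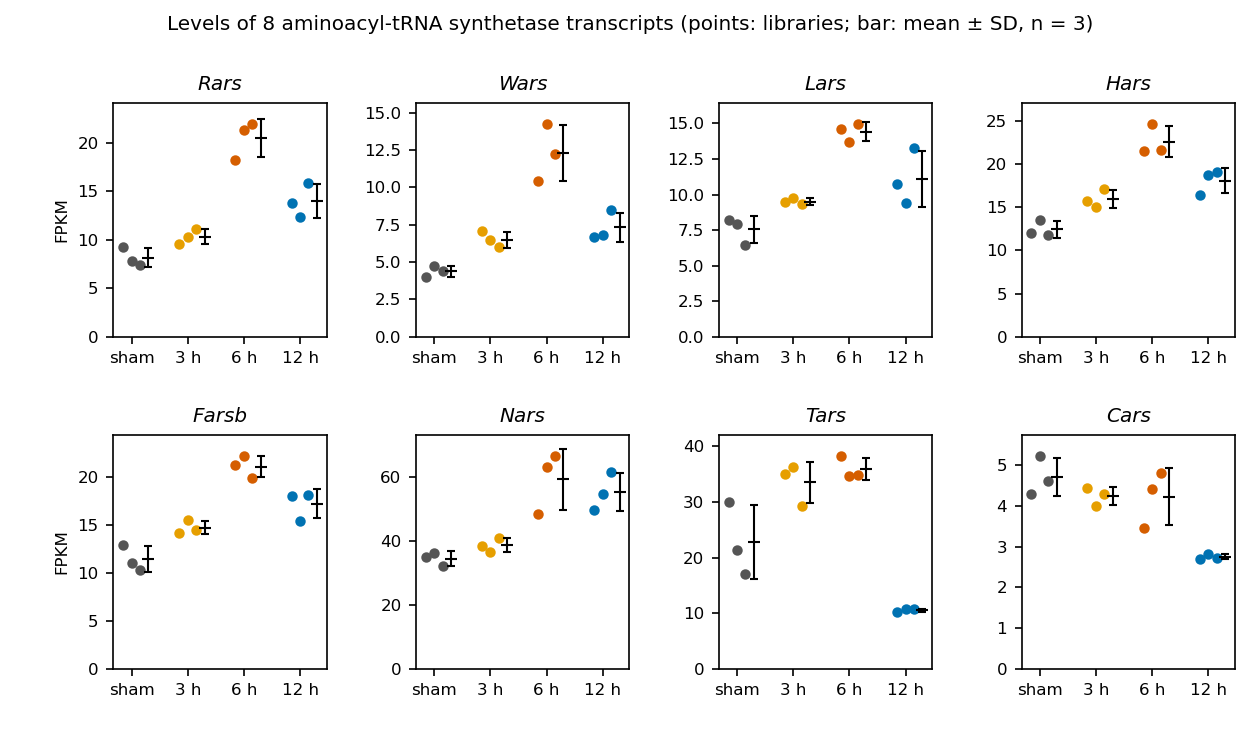
FPKM of 8 synthetase transcripts in each library (points), with the mean ± SD of the 3 libraries of each group beside them. Rars, Wars, Lars, Hars, Farsb and Nars have their highest mean at 6 h, whereas Tars falls to between 10.2 and 10.7 FPKM at 12 h and Cars to between 2.70 and 2.82 FPKM.

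Tars and Cars, the threonine and cysteine enzymes, were the 2 synthetases below sham at 12 h. Tars (ENSMUSG00000022241, chr15:11382301-11399665), whose promoter piece is printed above, had 30.05, 21.3 and 16.98 FPKM in sham livers, 34.97, 36.3 and 29.3 at 3 h, 38.2, 34.7 and 34.9 at 6 h and 10.2, 10.7 and 10.7 at 12 h. The 12 h libraries were tightly grouped below every other library, and the 6 h libraries lay above every sham library. Tars rose by 0.63 ± 0.18 at 6 h (edgeR adjusted p = 0.0142) and fell by 1.12 ± 0.18 at 12 h against sham (edgeR adjusted p = 0.000614). The rise at 6 h was lost without sham replicate 2 or 3, while the fall at 12 h was kept in all 21 alternatives. Cars (ENSMUSG00000010755, chr7:143557230-143600090) had 4.28, 5.22 and 4.62 FPKM in sham livers, 4.44, 4.003 and 4.28 at 3 h, 3.45, 4.42 and 4.81 at 6 h and 2.704, 2.82 and 2.72 at 12 h. Its level fell by 0.79 ± 0.14 at 12 h against sham (edgeR adjusted p = 0.00145), with no 12 h library reaching the lowest sham library, and its differences at 3 h and 6 h (-0.19 and -0.18) were not called.

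A further 10 synthetases are given by their means or differences. Nars, the asparagine enzyme and the most abundant synthetase in sham livers, averaged 34.6 ± 2.22 FPKM in sham livers, 38.7 ± 2.16 at 3 h, 59.5 ± 9.596 at 6 h and 55.4 ± 5.94 at 12 h, and rose by 0.75 at 6 h and 0.67 at 12 h. Qars and Eprs, the glutamine enzyme and the joint glutamate and proline enzyme of the multisynthetase complex, rose by 0.80 and 0.52 at 6 h. Iars and Kars, the isoleucine and lysine enzymes of the same complex, rose by 0.50 and 0.42 at 6 h and were not called at 12 h. Of the 7 members of the complex measured here, 6 were higher than sham at 6 h and 4 at 12 h, with medians of 0.52 and 0.37. Of the 12 free enzymes 8 were higher at 6 h, and 5 were higher and 2 lower at 12 h, with medians of 0.64 and 0.12. Over all genes 16.8% were higher at 6 h, and 13.5% were higher and 15.3% lower at 12 h; the difference between complex and free enzymes was not tested. Aars, the alanine enzyme, was the synthetase with the largest difference at 3 h, 0.58 ± 0.15 (edgeR adjusted p = 0.0137), with 29.8, 31.4 and 30.4 FPKM at 3 h and 16.96, 21.7 and 20.9 FPKM in sham livers. It was the only synthetase whose mean was highest at 3 h. Aars shares 1326 exon bases with Exosc6 on the same strand, a gene at a mean of 0 FPKM. Yars and Farsa, the tyrosine enzyme and the α subunit of the phenylalanine enzyme, rose by 0.65 and 0.74 at 6 h and stood at 0.06 and -0.04 at 12 h, not called. The 2 subunits of the phenylalanine enzyme thus differed at 12 h, where Farsb was called higher and Farsa was not; that contrast between them was not tested. Gars and Dars, the glycine and aspartate enzymes, were called at 12 h alone, at 0.54 and 0.45, and Dars was called in 9 of 21 alternatives. Several of these calls rested on single libraries. At 6 h the call was lost for Eprs without sham replicate 3 or 6 h replicate 3, for Iars without sham replicate 2 or 3 or 6 h replicate 2 or 3, for Kars without sham replicate 3 or 6 h replicate 2, and for Aars without 6 h replicate 1. At 12 h it was lost for Gars without sham replicate 3 or 12 h replicate 3, and Qars, at 0.35, was called in 11 of 21 alternatives. Yars was also called at 3 h, at 0.41, in 6 of 21 alternatives.

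Among the factors, the subunits of eIF2B, which reloads eIF2 with GTP, rose together. All 5 subunits were higher than sham at 6 h, with a median of 0.95, after 2 of 5 at 3 h, and 4 of 5 at 12 h, where the shares over all genes were 16.8%, 9.81% and 13.5%. Eif2b4 (ENSMUSG00000029145, chr5:31187558-31193430), the δ subunit, had 7.63, 10.4 and 10.7 FPKM in sham livers, 17.4, 17.9 and 18.8 at 3 h, 26.2, 27.3 and 22.2 at 6 h and 15.2, 15.8 and 14.2 at 12 h. The 4 groups did not overlap in any pair of sham with a later time, and Eif2b4 rose by 0.87 ± 0.15, 1.37 ± 0.15 and 0.64 ± 0.15 at 3 h, 6 h and 12 h (edgeR adjusted p = 0.00102, 1.50e-05 and 0.00565). Eif2b4 shares 204 exon bases with Snx17 on the opposite strand, a gene at a mean of 5.88 FPKM. Eif2b3 (ENSMUSG00000028683, chr4:117019402-117087306), the γ subunit, was far less abundant, with 1.73, 1.03 and 0.726 FPKM in sham livers, 1.42, 1.61 and 1.92 at 3 h, 2.198, 2.55 and 2.86 at 6 h and 2.22, 1.98 and 2.82 at 12 h. The highest sham library overlapped the 3 h libraries, and 11 of the 12 libraries reached 1 FPKM. Eif2b3 rose by 1.101 ± 0.26 at 6 h and 1.001 ± 0.26 at 12 h (edgeR adjusted p = 0.00537 and 0.0123), the call at 12 h being lost without 12 h replicate 3. Eif2b1 and Eif2b2, the α and β subunits, rose by 0.95 and 0.84 at 6 h, and Eif2b5, the ε subunit that carries the exchange activity, by 0.43. At 12 h Eif2b2 averaged 6.29 ± 0.557 FPKM, against 6.101 ± 1.28 FPKM in sham livers, and was the 1 subunit not called. The calls of Eif2b5 were lost without 6 h replicate 2 at 6 h and without 12 h replicate 2 at 12 h, and that of Eif2b1 at 3 h without 3 h replicate 2 or 3.

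The 2 subunits measured of eIF2, the substrate of eIF2B, were both higher than sham at 12 h. Eif2s1, the α subunit of eIF2 that stress kinases phosphorylate, averaged 6.76 ± 1.403 FPKM in sham livers, 8.32 ± 0.226 at 3 h, 10.9 ± 0.144 at 6 h and 13.5 ± 1.04 at 12 h. It rose by 0.66 ± 0.14 at 6 h and by 0.99 ± 0.14 at 12 h (edgeR adjusted p = 0.00270 and 0.000300), in each of the 21 alternatives. Eif2s2, the β subunit, was called at 12 h alone, at 0.59 ± 0.15 (edgeR adjusted p = 0.0103), and lost that call without 12 h replicate 3. A processed pseudogene, Gm9892, is 99.5% identical to Eif2s2 over 992 bases and stood at a mean of 10.7 FPKM, so the level of Eif2s2 is uncertain.

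**Figure D5:**
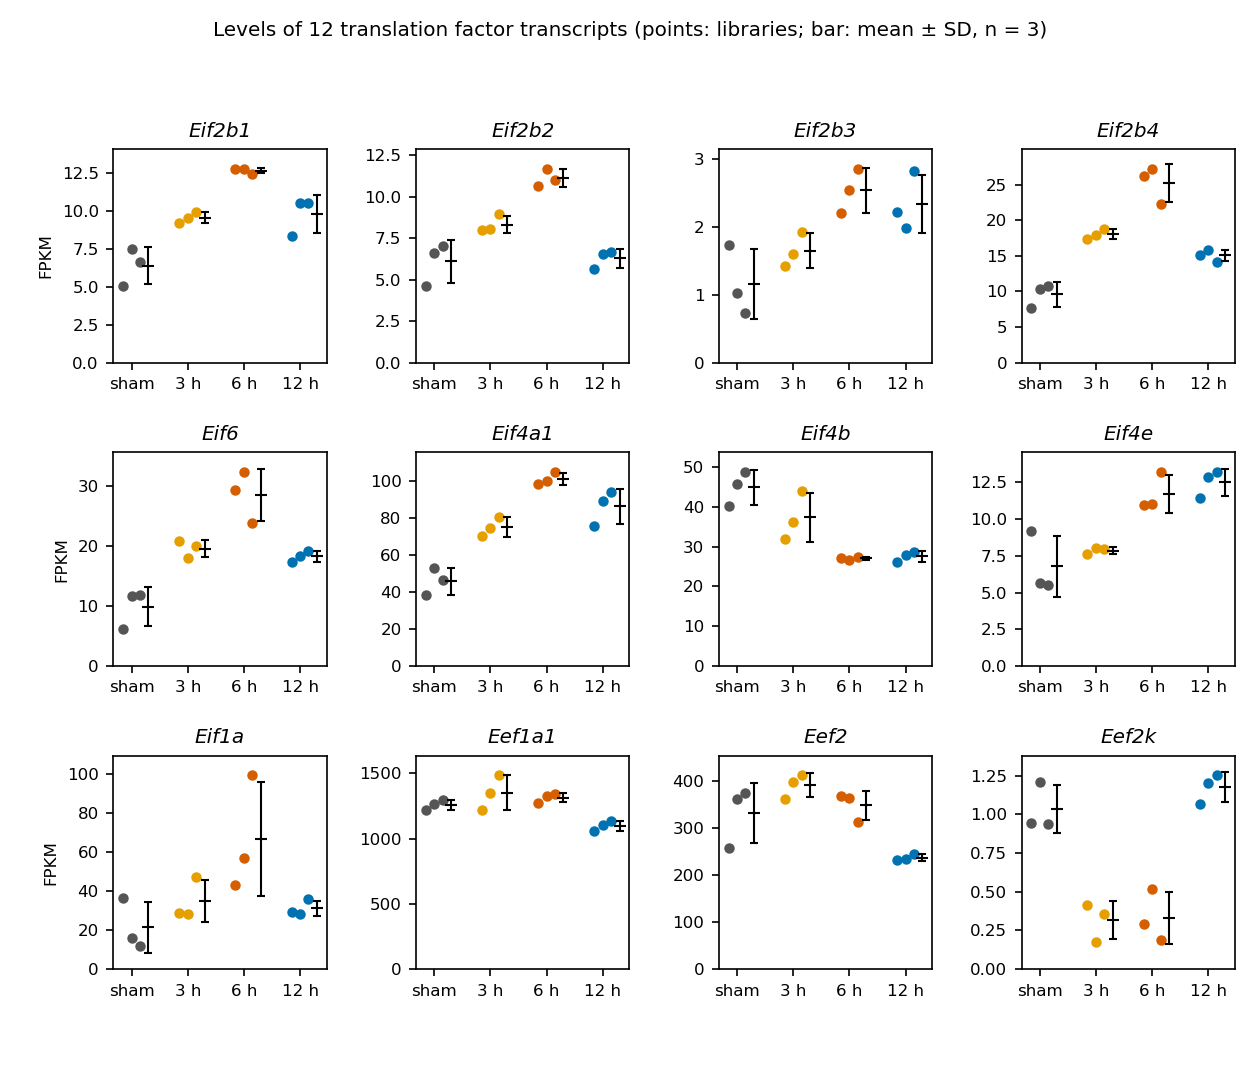
FPKM of 12 factor transcripts in each library (points), with the mean ± SD of the 3 libraries of each group beside them. Eif2b4, Eif6 and Eif4a1 are above sham at all 3 times, Eif4b is below sham at 6 h and 12 h, and Eef2k is below 0.52 FPKM at 3 h and 6 h.

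The scaffold factor eIF3, which holds the small subunit ready for mRNA, rose at 6 h in 4 of its 5 subunits measured here, against 16.8% of all genes. Eif3d, a subunit that can itself bind certain capped mRNAs, averaged 11.4 ± 1.47 FPKM at 6 h, against 6.09 ± 1.302 FPKM in sham livers, and rose by 0.88 ± 0.16 (edgeR adjusted p = 0.000967). Eif3b, Eif3a and Eif3c rose by 0.63, 0.49 and 0.37, and Eif3e, at 0.40, was not called. Eif3b was also called at 3 h, at 0.43, in 5 of 21 alternatives. The calls of Eif3a and Eif3c at 6 h were lost without sham replicate 3 or 6 h replicate 3, and that of Eif3c also without sham replicate 2 or 6 h replicate 2. At 12 h edgeR called 0 of the 5 subunits higher, with 4 at an unadjusted p under 0.05, 2 by DESeq2 and 0 by limma, and their median was 0.37.

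A pair of paralogues of eIF1A, which helps the scanning ribosome find the start codon, parted. Eif1a (ENSMUSG00000057561) had 36.5, 15.98 and 12.1 FPKM in sham livers, 28.7, 28.5 and 47.3 at 3 h, 43.3, 57.1 and 99.7 at 6 h and 29.4, 28.4 and 35.8 at 12 h. Its libraries varied widely within groups, and sham replicate 1 lay within the 3 h values and above the 12 h values, while the 6 h libraries were above every sham library. Eif1a rose by 1.61 ± 0.38 at 6 h (edgeR adjusted p = 0.00520) and was not called at 3 h (0.65 ± 0.38) or 12 h (0.53 ± 0.38), though it was called at both without sham replicate 1. Eif1ax, its X-linked paralogue, had 6.21, 6.36 and 6.41 FPKM in sham livers, 5.797, 6.205 and 7.67 at 3 h, 6.696, 6.46 and 6.77 at 6 h and 7.28, 6.32 and 7.06 at 12 h. Its differences from sham were 0.01, 0.04 and 0.11, none of them called. The 2 transcripts are 85.8% identical over 435 aligned bases, below the 95% used here to mark copies whose reads could be confused. Eif1, which guards start codon choice, was at 0.36 at 6 h and was not called at any time.

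In the cap-binding group, Eif4a1 and Eif4e rose while Eif4b fell. Eif4a1 (ENSMUSG00000059796, chr11:69666936-69672423), the RNA helicase of eIF4F, had 38.4, 52.8 and 46.3 FPKM in sham livers, 70.2, 74.9 and 80.6 at 3 h, 98.7, 99.9 and 105 at 6 h and 75.6, 89.3 and 94.1 at 12 h. No library after resection overlapped the sham libraries, and Eif4a1 rose by 0.67 ± 0.14, 1.11 ± 0.14 and 0.90 ± 0.14 (edgeR adjusted p = 0.00432, 5.71e-05 and 0.000540). A processed pseudogene, Eif4a-ps4, is 99.9% identical to it over 1218 bases and had 27.6, 36.5 and 30.5 FPKM in sham livers, 44.1, 54.5 and 57.5 at 3 h, 81.1, 76.5 and 71.2 at 6 h and 55.3, 58.9 and 64.3 at 12 h, so reads may be shared between them and the level of Eif4a1 is uncertain. Eif4a2, its paralogue, had 69.8, 43.6 and 42.7 FPKM in sham livers, 41.2, 43.4 and 49.2 at 3 h, 47.6, 39.5 and 47.1 at 6 h and 49.3, 52.9 and 57.2 at 12 h. Apart from sham replicate 1 its libraries lay between 39.5 and 57.2 FPKM, and its differences of -0.26, -0.24 and 0.02 were not called. Eif4e, the protein that binds the mRNA cap, averaged 6.78 ± 2.098 FPKM in sham livers, 7.86 ± 0.220 at 3 h, 11.7 ± 1.29 at 6 h and 12.5 ± 0.946 at 12 h, and rose by 0.77 at 6 h and 0.87 at 12 h.

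Eif4b (ENSMUSG00000058655, chr15:102073773-102097173), which stimulates the helicase, had 40.1, 45.8 and 48.8 FPKM in sham livers, 31.8, 36.2 and 43.9 at 3 h, 27.1, 26.6 and 27.4 at 6 h and 26.1, 27.9 and 28.8 at 12 h. All 6 libraries at 6 h and 12 h were below all others, and Eif4b fell by 0.76 ± 0.14 at 6 h and 0.72 ± 0.14 at 12 h (edgeR adjusted p = 0.000753 and 0.00184), in each of the 21 alternatives. Eif4g1, the scaffold that joins cap-binding protein and helicase, rose by 0.33 at 6 h, a call kept in 7 of 21 alternatives. Eif4g2, a relative of that scaffold without the cap-binding part, rose by 0.49 at 12 h, a call kept in 11 of 21. Eif4ebp1, the repressor that holds eIF4E until mTORC1 phosphorylates it, had 7.503, 12.8 and 15.04 FPKM in sham livers, 12.1, 10.8 and 20.5 at 3 h, 10.6, 9.04 and 10.03 at 6 h and 6.95, 10.2 and 7.83 at 12 h. The sham libraries overlapped each later group, while the 3 h libraries were above all 6 h and 12 h libraries. No difference from sham was called (0.25 ± 0.27, -0.28 ± 0.27 and -0.51 ± 0.27 at 3 h, 6 h and 12 h), nor was that of -0.53 ± 0.27 at 6 h against 3 h, although the lower level at 12 h was called without sham replicate 1.

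Eif6 and Eif5 stood out among the factors that act when the ribosomal subunits join. Eif6 (ENSMUSG00000027613, chr2:155819832-155826925), which binds the large subunit and keeps it from joining too early, had 6.12, 11.7 and 11.9 FPKM in sham livers, 20.8, 17.9 and 20.05 at 3 h, 29.3, 32.4 and 23.9 at 6 h and 17.4, 18.4 and 19.2 at 12 h. Every library after resection was above every sham library, with sham replicate 1 the lowest, and Eif6 rose by 0.94 ± 0.21, 1.49 ± 0.22 and 0.87 ± 0.21 (edgeR adjusted p = 0.00689, 0.000151 and 0.00842). Eif5, which triggers GTP hydrolysis by eIF2 at the start codon, averaged 56.1 ± 5.83 FPKM at 12 h, against 37.5 ± 11.5 FPKM in sham livers, and rose by 0.57 ± 0.19 (edgeR adjusted p = 0.0381). It was no longer called when sham replicate 2 or 3, 6 h replicate 1 or a 12 h library was left out, and sham replicate 1, at 50.8 FPKM, lay close to the 12 h libraries. Eif5b, the GTPase of subunit joining, and Eif5a, which eases peptide bond formation at difficult sequences, were called at no time, with differences between -0.23 and 0.31.

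Among the elongation group, the subunits of the eEF1 exchange factor and eEF2 had small differences, and the kinase of eEF2 had the largest. Eef1a1, which delivers charged tRNAs and was the most abundant member, averaged 1258 ± 38.6 FPKM in sham livers, 1352 ± 134 at 3 h, 1313 ± 35.2 at 6 h and 1098 ± 39.3 at 12 h, and was not called. Eef1b2 and Eef1g, subunits of its exchange factor, rose by 0.50 and 0.38 at 6 h and by 0.45 and 0.48 at 12 h. The call of Eef1g at 6 h was kept in 8 of 21 alternatives, and a processed pseudogene (Gm4366, mean of 4.56 FPKM) is 99.6% identical to it. At 12 h Eef1b2 was not called without 12 h replicate 2, nor Eef1g without 12 h replicate 2 or 3. Eef1d, another subunit, was called at no time and shares 277 exon bases with Naprt on the same strand. Eef2 (ENSMUSG00000034994, chr10:81176631-81182498), which moves the ribosome along by a codon, had 257, 362 and 374 FPKM in sham livers, 362, 397 and 412 at 3 h, 368, 364 and 312 at 6 h and 231, 234 and 245 at 12 h. The 12 h libraries were the 3 lowest of the 12, and Eef2 fell by 0.50 ± 0.15 at 12 h against sham (edgeR adjusted p = 0.0247), a call lost without sham replicate 2 or 3 or any 12 h library.

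Eef2k (ENSMUSG00000035064, chr7:120842831-120907450), the kinase that phosphorylates eEF2 and slows elongation, had 0.945, 1.21 and 0.941 FPKM in sham livers, 0.416, 0.178 and 0.357 at 3 h, 0.294, 0.517 and 0.189 at 6 h and 1.07, 1.205 and 1.25 at 12 h. These levels rested on 119, 167 and 134 counts in sham livers, 50, 20 and 38 at 3 h, 31, 59 and 19 at 6 h, and 146, 163 and 166 at 12 h. No 3 h or 6 h library came near the sham or 12 h libraries. Eef2k fell by 1.74 ± 0.35 at 3 h and 1.65 ± 0.34 at 6 h (edgeR adjusted p = 0.00289 and 0.00227), and at 12 h its difference of 0.18 ± 0.32 was not called. Both falls were kept in all 21 alternatives. Eef2k passed the filter of 1 FPKM in 3 libraries through its 12 h libraries and sham replicate 2, so it could not have passed had it stayed as low as at 3 h and 6 h. With a mean of 1.03 FPKM in sham livers it was also the least abundant member.

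The comparisons of successive times showed where each class moved. At 6 h against 3 h, 7 of 19 synthetases (36.8%) and 2 of 32 factors (6.25%) were higher at 6 h, against 4.45% of all genes tested. No member was lower at 6 h than at 3 h by edgeR, against 4.18% of all genes; at an unadjusted p under 0.05 the counts were 0 synthetases and 1 factor, by DESeq2 0 and 1, and by limma 0 and 0. At 12 h against 6 h, 7 synthetases (36.8%) and 4 factors (12.5%) were lower, against 12.6% of all genes, so the factors stood at the background share. Eif5 and Eef2k, 2 factors (6.25%), were higher at 12 h than at 6 h, against 12.1% of all genes, and edgeR called 0 synthetases higher, with 0 at an unadjusted p under 0.05 and 0 by DESeq2 or limma.

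The median difference of the synthetases was 0.32 at 6 h against 3 h and -0.36 at 12 h against 6 h, and that of the factors was 0.24 and -0.08, beside 0.01 and -0.04 over all genes. Scaling by library totals gave 0.18 and -0.06 for the synthetases and 0.11 and 0.22 for the factors, so the direction of the factor median at 12 h against 6 h flips with the scaling; relative to all genes it was -0.04 either way. With that scaling 2 synthetases were higher and 1 was lower at 12 h than at 6 h, and 8 factors were higher and 1 was lower. Rars differed by 1.005 ± 0.14 between 6 h and 3 h and by -0.53 ± 0.14 between 12 h and 6 h, and Wars by 0.93 ± 0.15 and -0.73 ± 0.15. Tars differed by -1.75 ± 0.18 between 12 h and 6 h (edgeR adjusted p = 3.36e-05) and Eef2k by 1.82 ± 0.34 (edgeR adjusted p = 0.00204), the largest differences in the 2 classes. Eef2k reached 1 FPKM in 3 libraries at 12 h and in 0 at 6 h. It thus passed the filter through the group where it was higher, with sham replicate 2, and its rank is a description. Of the 2 factors called at 6 h against 3 h, Eif2b4 was called in 5 of 21 alternatives and Eif3a in 13 of 21, Eif3a losing its call without any 3 h library or without 6 h replicate 1 or 3, and 13 factors were called there without sham replicate 1. Without sham replicate 1, 11 synthetases and 11 factors were called at 12 h against 6 h. Of all genes tested, 1971 were higher and 2229 lower in that comparison without this library, against 1387 and 1441 with it. At 6 h against 3 h these numbers were 1068 and 1043, against 509 and 479. Without 3 h replicate 1 or 6 h replicate 2, 3 synthetases were called at 6 h against 3 h, and 4 were without 6 h replicate 3. At 12 h against 6 h, 3 factors were called without 6 h replicate 2, 12 h replicate 1 or 12 h replicate 2. Leaving out these 3 h, 6 h or 12 h libraries also gave fewer calls in each direction over all genes tested.

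Genes around these members, taken from lists of the pathway, were read in the same fit. Of 31 other cytosolic initiation, elongation and release factors tested, 2 were higher than sham at 3 h, 8 at 6 h and 8 at 12 h, and 1 was lower at 6 h and 1 at 12 h, with medians of 0.12, 0.28 and 0.29. The higher calls made up 6.45%, 25.8% and 25.8% of the list, against 9.81%, 16.8% and 13.5% of all genes. The lower calls made up 3.23% of the list at 6 h and at 12 h, against 18.2% and 15.3% of all genes. Eif4ebp3, a further eIF4E-binding repressor, averaged 11.8 FPKM at 6 h, against 1.404 FPKM in sham livers, and rose by 3.03 ± 0.37 (edgeR adjusted p = 4.39e-05). Eif4ebp2, of the same family, averaged 23.4 FPKM at 12 h, against 45.8 FPKM in sham livers, and fell by 0.98 ± 0.12 (edgeR adjusted p = 8.19e-05). At 6 h Eif4ebp2 was also lower, at -0.62, so of the 3 genes for eIF4E-binding repressors 1 was higher, 1 was lower and 1, Eif4ebp1, was not called. Pelo, which rescues stalled ribosomes, rose by 1.21 ± 0.31 at 6 h. Of 4 further genes of the synthetase complex, 1 was higher than sham at 3 h and 3 were at 6 h and at 12 h, with medians of 0.20, 0.83 and 0.77. These calls made up 25%, 75% and 75% of the 4 genes, against 9.81%, 16.8% and 13.5% of all genes. The scaffold proteins of the complex, Eef1e1, Aimp2 and Aimp1, rose by 1.01, 0.97 and 0.70 at 6 h.

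The shares of mitochondrial synthetases called lower, and called higher at 6 h, were near those of all genes. Of 15 mitochondrial synthetases tested, 2 were lower than sham at 3 h, 3 at 6 h and 3 at 12 h, and 2 were higher at 6 h, with medians of -0.02, 0.14 and -0.07. The lower calls made up 13.3%, 20% and 20% of the list, against 11.7%, 18.2% and 15.3% of all genes, and the higher calls at 6 h 13.3%, against 16.8%. At 3 h and at 12 h edgeR called 0 higher, against 9.81% and 13.5% of all genes. At each of these times 1 was higher at an unadjusted p under 0.05, and 0 by DESeq2 or limma. Fars2 and Aars2, the mitochondrial phenylalanine and alanine enzymes, fell by 0.96 and 0.79 at 12 h, and Vars2 and Nars2, the mitochondrial valine and asparagine enzymes, by 0.92 and 0.70 at 6 h. Of 9 mitochondrial translation factors, Mrrf, which recycles mitochondrial ribosomes, was the 1 called in a comparison with sham, at 0.55 ± 0.15 at 6 h. This call made up 11.1% of the 9 factors, against 16.8% of all genes called higher at 6 h. The medians of the mitochondrial synthetases and factors lay nearer to those of all genes than the cytosolic medians did at 6 h, and the difference between the lists was not tested.

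Of 13 tested genes for ATF4 and its known targets, 2 were higher and 2 lower than sham at 3 h, 1 and 2 at 6 h, and 2 and 2 at 12 h, with medians of 0.25, 0.50 and -0.50. As shares of the list these were 15.4% each way at 3 h, 7.69% and 15.4% at 6 h, and 15.4% each way at 12 h, against 9.81% and 11.7%, 16.8% and 18.2%, and 13.5% and 15.3% of all genes, with 1 or 2 genes behind each. Asns, asparagine synthetase, had a difference of -0.69 ± 0.23 at 3 h, 0.67 ± 0.22 at 6 h and 1.26 ± 0.22 at 12 h (edgeR adjusted p = 0.0476, 0.0312 and 0.00103). Its value at 3 h lay close to the threshold, and of the list 1 gene in place of 2 was lower at 3 h by limma and without sham replicate 1. Trib3, an inhibitor of AKT signalling induced by ATF4, fell by 3.02 at 3 h, 1.31 at 6 h and 1.22 at 12 h. Ddit4, an inhibitor of mTORC1, and Cebpb, a transcription factor of the acute liver response, rose by 2.08 and 1.56 at 3 h. Of 6 genes for eIF2 kinases and phosphatase subunits, Eif2ak3 (the kinase PERK) and Ppp1r15a (a phosphatase subunit) rose by 1.04 and 0.70 at 6 h, and Eif2ak1 (the heme-regulated kinase) fell by 0.47 at 12 h. The higher calls were 33.3% of these 6 genes at 6 h, against 16.8% of all genes. The lower call was 16.7% at 12 h, against 15.3%. Of 14 genes for eIF4E and mTOR signalling, 3 were lower than sham at 3 h, 3 at 6 h and 4 at 12 h, and 1 was higher at 6 h, with medians of -0.04, -0.16 and -0.25. The lower calls made up 21.4%, 21.4% and 28.6% of the list, against 11.7%, 18.2% and 15.3% of all genes, and the higher call at 6 h 7.14%, against 16.8%. Deptor, which binds and restrains mTOR, averaged 6.07 FPKM at 6 h, against 23.98 FPKM in sham livers, and fell by 2.01 ± 0.19 (edgeR adjusted p = 4.92e-06). Tsc1, a further restraint on mTORC1, fell by 1.15 at 6 h, and Rps6ka1, a kinase downstream of ERK, by 1.79. Pdcd4, which blocks the helicase eIF4A, fell by 1.203 at 12 h.

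Markers of other liver cells moved with the groups. The 7 hepatocyte markers found summed to 37814 to 39102 FPKM in sham livers, 38963 to 47599.6 FPKM at 3 h, 35364 to 40548 FPKM at 6 h and 23976 to 25488 FPKM at 12 h, where Tars, Cars and Eef2 were also low. The 12 neutrophil markers summed to 1.93 to 2.62 FPKM in sham livers, 13.6 to 14.7 FPKM at 3 h, 9.55 to 19.7 FPKM at 6 h and 6.71 to 8.90 FPKM at 12 h, with 1 of them at 0 in every library. The 12 macrophage and monocyte markers summed to 66.7 to 92.2, 91.9 to 117, 68.7 to 81.1 and 56.3 to 67.5 FPKM in the same order of groups, and the 8 endothelial markers to 26.7 to 33.6, 42.8 to 53.3, 33.5 to 36.8 and 22.7 to 27.2 FPKM. The 5 cholangiocyte markers summed to 2.65 to 3.57, 4.71 to 8.95, 5.71 to 10.4 and 1.91 to 3.27 FPKM in that order, so that their median, like the synthetase sum, was highest at 6 h. The 5 red blood cell markers summed to 93.0 to 119, 149 to 176, 87.9 to 116 and 47.9 to 69.2 FPKM in that order of groups, the 8 stellate and fibroblast markers to 22.1 to 28.2, 27.6 to 43.3, 27.9 to 30.4 and 24.2 to 28.9 FPKM, and the 7 lymphocyte markers to 1.71 to 2.22, 1.59 to 3.18, 0.541 to 1.22 and 0.369 to 1.02 FPKM. The part of these cell types in the differences of the members was not tested.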

How the data were processed

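Poly(A) RNA from liver was sequenced after TRIzol extraction and NEBNext Ultra preparation, per the labels' protocols. The submitters' processing notes name the build GRCm38 (mm10), DESeq2 1.20.0, featureCounts 1.5.0-p3, HISAT2 2.0.5, CASAVA 1.8 and fastp, without their roles, and the strand used in counting is not given in the sources used here. The authors deposited 1 table of raw counts and FPKM values per gene and library, per the file headers, and the deposited FPKM equal counts over gene length and 1 number per library. No 2 libraries held identical values.

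The members, lists and tests were chosen with earlier results of these data known. Genes with at least 1 FPKM in at least 3 of 12 libraries were tested (11451). Counts were fitted with edgeR 4.0.16 (limma 3.58.1, R 4.3.3) with TMM scaling, 4 groups in 1 quasi-likelihood fit, two-sided, adjusted by Benjamini-Hochberg, and an SE is the log2 difference over the square root of F. The fit was tested on simulated counts with a common spread and with as many genes raised as lowered. That run did not test how the scaling between libraries acts on these data. Values per library are given for the 6 called members of each class with the largest differences from sham, up to 6 called lower, Eif4ebp1, Eef2k and the paralogue pairs; outside the members, up to 4 called genes of each list are named. Near-identical copies were found with blastn 2.17.0 (at least 95% identity over at least 300 bases, mean of at least 1 FPKM), and overlapping exons from GENCODE M21. Alternatives were other scalings, DESeq2 1.42.0, limma on log2 of FPKM plus 1 or 0.1, no filter, 6-library fits, a replicate block and leaving out libraries.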

Additional observations from a re-analysis of the deposited data

Results flagged for a closer look

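For 22 results among the members, the change from sham differed between successive times by edgeR's test of that difference. Between 6 h and 3 h the log2 difference was above 0 and called for Farsb (0.53), Hars (0.51), Lars (0.61), Nars (0.63), Qars (0.67), Rars (1.005), Wars (0.93), Eif2b4 (0.50) and Eif3a (0.53). Between 12 h and 6 h it was below 0 and called for Cars (-0.60), Farsa (-0.78), Qars (-0.45), Rars (-0.53), Tars (-1.75), Wars (-0.73), Yars (-0.60), Eif2b2 (-0.81), Eif2b4 (-0.73), Eif6 (-0.62) and Eef2 (-0.54). It was above 0 and called for Eif5 (0.61) and Eef2k (1.82). The value for Tars rests on 12 h libraries between 10.2 and 10.7 FPKM against 6 h libraries between 34.7 and 38.2 FPKM, and that for Eef2k on 146 to 166 counts at 12 h against 19 to 59 counts at 6 h. With 3 libraries at 1 FPKM at 12 h and 0 at 6 h, Eef2k passed the filter through its higher group and sham replicate 2. Eif2b4 at 6 h against 3 h was called in 5 of 21 alternatives and Eif6 at 12 h against 6 h in 9 of 21.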

How the results depend on the processing

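No called member changed sign in any alternative. The factor median at 12 h against 6 h did change sign with library totals, at 0.22 against -0.08 as reported, and with that scaling 2 synthetases were higher and 1 lower there, against 0 and 7 as reported. Of all genes tested, 3122 were higher and 561 lower there with library totals, against 1387 and 1441 as reported. Numbers below count members called in either direction, synthetases and factors apart. At 3 h against sham, 3 synthetases became 0 with library totals, 5 with DESeq2, 5 with limma at either pseudocount and 1 with only the 6 libraries compared, and leaving out single libraries gave 1 to 5. The 6 factors at 3 h became 10 without sham replicate 1 and 6 h replicate 3 together, and 4 to 10 without single libraries. At 6 h against sham, 14 synthetases became 8 with library totals and 9 with only the 6 libraries compared, and 10 to 16 without single libraries, while 19 factors stayed between 15 and 20 without single libraries. At 12 h against sham, with only the 6 libraries compared, 11 synthetases became 7 and 15 factors became 6, and leaving out single libraries gave 7 to 13 and 9 to 19. At 6 h against 3 h, 7 synthetases became 3 to 8 without single libraries. The 2 factors there became 1 with library totals, 6 with DESeq2, 1 with limma at either pseudocount, 9 with only the 6 libraries compared, 10 without the 2 libraries together, and 0 to 13 without single libraries. At 12 h against 6 h, 7 synthetases became 3 with library totals, 12 without the 2 libraries together and 5 to 11 without single libraries, and 6 factors became 11 without the 2 libraries together and 3 to 11 without single libraries. The numbers of all genes called moved in these alternatives too, and some are given above. Fits with fewer libraries have fewer residual degrees of freedom, and the causes of these moves were not tested.

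With the replicate number as a block, the 2 factors called at 6 h against 3 h became 0, and no other class count moved by over 1.5 times. No pairing by number was seen: the correlation of deviations exceeded 0.1 in 4 of 18 same-numbered pairs (range -0.255 to 0.173), and 3 of 12 libraries correlated best with their own number. Such correlations cannot show that same-numbered libraries were handled apart. Under all 21 alternatives, the calls of Rars and Wars at 6 h and 12 h, Tars and Cars at 12 h, Eif4b and Eif4e at 6 h and 12 h, Eif2b4, Eif4a1 and Eif6 at all 3 times and Eef2k at 3 h and 6 h were kept. Without the filter, 40.8% of all calls at 6 h against 3 h were higher, against 51.5% with it. With 3 libraries in a group, small differences of single members may have been missed, and Eef2k and Eif2b3 lay near the filter of 1 FPKM.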
